A study of Homo sapiens with 6 samples.

Results

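Cells that expressed a dominant negative FOS peptide (dnFOS) were compared directly with cells that expressed a dominant negative C/EBP peptide (dnCEBP), by total RNA sequencing of KO52 cells. KO52 is an established acute myeloid leukemia line that the labels give as CEBPA double mutant, and both groups carry that genotype. The comparison was chosen by the label of the peptide and used 4 of the 6 libraries of the series, 2 per peptide. All cells carried the doxycycline-inducible lentiviral vector pCW57.1, with the insert for dnFOS, the insert for dnC/EBP or no insert (empty vector, EV), were treated with doxycycline and were sorted for GFP. The 2 EV libraries entered the estimate of the spread and are given as levels beside the comparison, but served as no reference. The model is limited to 1 cell line, the peptides were expressed from an integrated vector, and the time of induction for these RNA libraries is not given in the labels. The labels do not say whether replicates came from separate cultures, so p-values measure the spread between these samples only, which may be technical.

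AP-1 and C/EBP proteins belong to the basic leucine zipper family. They bind DNA as dimers held together by a coiled coil of leucines. AP-1 dimers pair a JUN protein with a FOS, ATF or MAF relative, respond to growth factor and stress signals, and recognise the palindrome TGANTCA or, for some dimers, TGACGTCA. C/EBP dimers recognise TTGCNNAA and drive granulocyte and monocyte differentiation, with C/EBPα needed for neutrophil formation. A dominant negative peptide of this design keeps the zipper of its family and lacks a working basic region, so a dimer that contains it cannot sit on DNA. The dnFOS peptide takes up partners of FOS, and the dnCEBP peptide takes up members of the C/EBP family. In myeloid leukemia both families act at many of the same regulatory regions. The direct comparison asks where blocking 1 family and blocking the other leave the cells with different transcript levels.

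The promoter letters that the 2 families read are shown here for 6 of the named genes. CXCL8, ENO2, HSPA6 and ANXA2, all lower in dnFOS than in dnCEBP, had the AP-1 letters TGANTCA within 250 bases before their start. PPP1R15A and CPA3 were also lower in dnFOS. PPP1R15A had TGACGTCA and C/EBP letters, and CPA3 had C/EBP letters alone. Other named genes lower in dnFOS, among them CLC, HDC, RGS2 and ADM, had none of these letters within the same distance. The 6 were picked after their values and matches were seen, and each has 1 start in the RefSeq table used (GRCh38.p14). Each run below reads 5′ to 3′ on the strand of its gene and ends at the base before the start, and capitals mark the matched letters. The windows are chr4:73740319-73740568 (plus strand) for CXCL8, chr12:6914330-6914579 (plus) for ENO2, chr1:161524290-161524539 (plus) for HSPA6, chr15:60397987-60398236 (minus) for ANXA2, chr19:48872171-48872420 (plus) for PPP1R15A and chr3:148865046-148865295 (plus) for CPA3.
CXCL8: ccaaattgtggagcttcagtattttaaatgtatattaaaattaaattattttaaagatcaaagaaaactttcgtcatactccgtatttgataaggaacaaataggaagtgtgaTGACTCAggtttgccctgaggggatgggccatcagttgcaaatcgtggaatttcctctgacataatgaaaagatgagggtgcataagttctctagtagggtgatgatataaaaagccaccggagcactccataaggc
ENO2: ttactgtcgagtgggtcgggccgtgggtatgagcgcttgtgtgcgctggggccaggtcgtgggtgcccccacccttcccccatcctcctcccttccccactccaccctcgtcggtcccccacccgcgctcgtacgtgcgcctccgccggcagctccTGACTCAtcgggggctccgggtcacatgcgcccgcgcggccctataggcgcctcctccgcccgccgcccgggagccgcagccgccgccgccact
HSPA6: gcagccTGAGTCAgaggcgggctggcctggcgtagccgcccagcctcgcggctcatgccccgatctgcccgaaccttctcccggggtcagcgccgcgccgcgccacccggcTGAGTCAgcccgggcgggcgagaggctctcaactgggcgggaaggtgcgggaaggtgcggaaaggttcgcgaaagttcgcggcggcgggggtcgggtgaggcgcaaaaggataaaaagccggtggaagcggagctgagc
ANXA2: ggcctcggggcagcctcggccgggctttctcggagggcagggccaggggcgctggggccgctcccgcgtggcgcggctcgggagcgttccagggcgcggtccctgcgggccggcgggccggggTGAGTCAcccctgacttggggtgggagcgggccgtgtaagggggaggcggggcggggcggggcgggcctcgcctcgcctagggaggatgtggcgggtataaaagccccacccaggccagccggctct
PPP1R15A: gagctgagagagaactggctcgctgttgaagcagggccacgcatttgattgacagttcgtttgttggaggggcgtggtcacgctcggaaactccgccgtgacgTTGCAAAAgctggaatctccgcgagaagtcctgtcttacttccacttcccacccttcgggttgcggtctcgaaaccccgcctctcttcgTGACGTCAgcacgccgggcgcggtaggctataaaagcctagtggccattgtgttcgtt
CPA3: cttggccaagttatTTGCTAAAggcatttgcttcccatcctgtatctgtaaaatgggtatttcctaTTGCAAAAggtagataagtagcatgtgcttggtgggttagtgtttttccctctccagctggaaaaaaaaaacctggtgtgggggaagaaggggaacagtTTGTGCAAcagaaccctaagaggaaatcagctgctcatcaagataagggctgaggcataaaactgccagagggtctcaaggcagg
Counted back from the start, the AP-1 letters began at base -137 in CXCL8, -94 in ENO2, -244 and -139 in HSPA6 and -127 in ANXA2. In PPP1R15A, TGACGTCA began at -58 and C/EBP letters at -147, and in CPA3 C/EBP letters began at -236, -184 and -85. A match is a run of letters and not a measured binding site. No promoter was in the table for MPO or SRC.

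The 4 peptide libraries differed in depth along with the peptide. The total counts were 27663179 and 21681121 in dnCEBP and 14583615 and 9862994 in dnFOS, against 24479677 and 22056069 in EV. A count of 3 in a library, taken as the floor, was worth 0.111 to 0.290 CPM, counts scaled to a common library size. Across tested genes, log2 CPM correlated at r = 0.981 between the dnFOS replicates, at 0.987 between the dnCEBP replicates and at 0.970 to 0.978 between libraries of different peptides, and genes are not independent replicates. The leading principal component held 40.1% of the variance. The dnFOS libraries lay at 26.6 and 49.6 on it and the other 4 libraries between -23.4 and -13.7. The signal recognition particle RNA RN7SL1 took 6.12% and 4.31% of counts in dnFOS, against 7.94% in each dnCEBP library. Of the 10 myeloid blast markers all were tested, with a summed level of 1240 to 1290 CPM in dnCEBP and 1360 CPM in each dnFOS library. Among them 3 (PTPRC, CD34 and LYZ) were lower in dnFOS (30.0%, against 7.84% of all genes). MPO and CEBPA were higher (20.0%, against 6.83%). LYZ and CEBPA had calls that depended on single libraries, as given below. PTPRC was at 470 and 512 CPM in dnCEBP and 313 and 321 CPM in dnFOS (log2 fold change -0.63, adjusted p = 3.29e-06). The 6 B cell markers summed to 11.9 to 16.6 CPM in the peptide libraries, with MS4A1, PAX5 and BLK at 0 in every library. The 10 markers of epithelial, fibroblast and endothelial cells summed to 140 to 148 CPM, with DCN and CDH5 at 0 and KRT8 and VWF called lower in dnFOS, VWF with its call lost without dnCEBP replicate 1 (adjusted p = 0.0529). In the erythroid list HBA2 was at 0. The T and NK cell list summed to 212 and 210 CPM in dnCEBP and 170 and 146 CPM in dnFOS, and 3 of its 4 tested members (CD3D, CD4 and TRAC) were lower in dnFOS, TRAC with its call lost without dnCEBP replicate 1 (adjusted p = 0.0911) or dnFOS replicate 2 (0.104). The 10 erythroid and megakaryocyte markers summed to 237 and 196 CPM in dnCEBP and 122 and 108 CPM in dnFOS, and 1, ITGA2B, was called lower. Their part in the results below was not tested. Counts of FOS and CEBPA can include reads from the inserts where these share sequence with the genes, and which part of each gene the inserts hold is not given in the sources used here, so neither gene checks the labels. Exons of DDIT3, CD52, DNAJB1, GFI1B, TPI1, ENO1, FTH1, CIITA, TMSB10, KIF20A, RPL9, RSAD2, THBS1 and WARS overlap a gene on the other strand, and exons of MYL6, IL1RL1, HAVCR2, ALDOA and PGK1 a gene on the same strand, so reads of those genes can be among their counts.

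Of 15395 genes tested, 2259 (14.7%) differed between the peptides at an adjusted p under 0.05. Here and throughout, adjusted p is from edgeR's quasi-likelihood test with Benjamini-Hochberg adjustment over all genes tested, and a log2 fold change is dnFOS minus dnCEBP, so that a negative value means a lower level under dnFOS. Of the called genes, 1207 (7.84% of those tested) were lower in dnFOS and 1052 (6.83%) were higher, so 53.4% of calls were lower. With libraries scaled by their totals alone, the median of all genes moved from 0.02 to 0.14 and 25.4% of calls were lower. The split of all calls therefore follows the scaling, and the changes described below are relative to the median gene. At least 2-fold differences were found for 342 genes (2.22% of those tested), 237 lower and 105 higher in dnFOS, so 69.3% were lower. Scaled by totals, 50% of them were lower. Most differences were small, with a median absolute log2 fold change of 0.51 among calls. Without dnFOS replicate 2, the shallowest library, 1182 genes were called, without dnCEBP replicate 1 1349 and without dnCEBP replicate 2 1531. Of 279 called genes that are named or stand in a list, 133 lost the call without at least 1 library, and those described are marked beside their values. With every library thinned to 9862994 counts, 1432 were called, and this setting was added once the data had been seen.

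**Figure D1:**
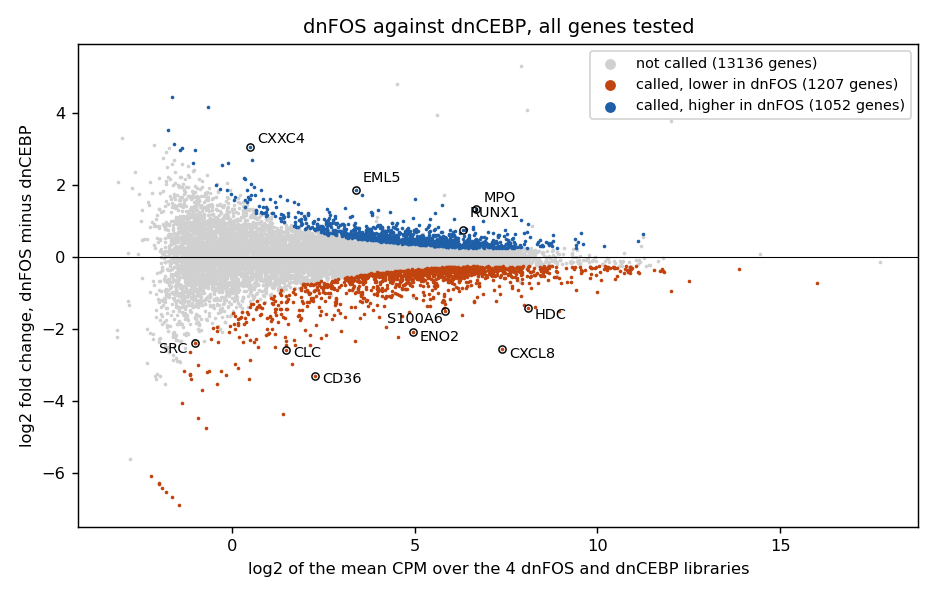
Each point is 1 of the 15395 genes tested, with its mean level over the 4 peptide libraries on the x axis (log2 CPM) and its log2 fold change, dnFOS minus dnCEBP, on the y axis. Genes lower in dnFOS (1207) and higher in dnFOS (1052) at an adjusted p under 0.05 are coloured, and CXCL8, labelled among them, lies at -2.55.

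Most chemokine ligand genes tested were lower in dnFOS. CXCL8 (ENSG00000169429, chromosome 4, 73740506 to 73743716, plus strand) encodes interleukin-8, which recruits neutrophils. Its level was 292 and 283 CPM in dnCEBP, 46.6 and 51.9 CPM in dnFOS and 249 and 262 CPM in EV (log2 fold change -2.55 ± 0.09 SE, adjusted p = 2.06e-18). The dnFOS libraries lay far under all 4 other libraries, and the dnCEBP libraries lay close to EV. Of 11 chemokine ligands tested, 7 were lower in dnFOS (63.6%, against 7.84% of all genes) and 0 were higher, with a median log2 fold change of -0.94, against 0.02 for all genes. CCL2, which attracts monocytes, was measured at 15.6 and 16.2 CPM in dnCEBP, 7.81 and 7.64 CPM in dnFOS and 16.8 and 14.3 CPM in EV (log2 fold change -1.04 ± 0.17 SE, adjusted p = 6.11e-05), with no overlap between the peptides. The macrophage inflammatory protein genes CCL3, CCL3L1 and CCL4L2 had log2 fold changes of -1.65, -0.94 and -1.24, with adjusted p of 0.000123, 7.89e-06 and 0.000109. Their near-identical copies make the values of each uncertain, since reads may have been split or dropped between them. CXCL2 and CCL5, named after their values were seen, were also called, with log2 fold changes of -0.85 and -0.94, and each lost its call without 1 library. Without dnFOS replicate 1 the adjusted p was 0.0976 for CXCL2 and 0.219 for CCL5, without dnCEBP replicate 2 it was 0.0514 for CXCL2, and without dnCEBP replicate 1 it was 0.116 for CCL5. CCL4, CCL23, CXCL3 and CCL28 did not pass the test, with log2 fold changes of -0.77, -0.88, -0.64 and -0.10. None of the 13 chemoattractant receptors tested was called (1 was lower without dnFOS replicate 1 or dnCEBP replicate 2), including CXCR2, a receptor of interleukin-8 (log2 fold change 0.38, adjusted p = 0.4), and CXCR4 (log2 fold change -0.24, adjusted p = 0.213), and the median of the receptors was -0.24.

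Of 22 NF-kappaB feedback genes and inflammatory cytokines tested, 10 were lower in dnFOS (45.5%, against 7.84% of all genes) and 0 were higher (against 6.83%), with a median of -0.43. OSM, which encodes the cytokine oncostatin M, was at 70.5 and 53.9 CPM in dnCEBP, 30.4 and 27.1 CPM in dnFOS and 61.2 and 51.3 CPM in EV (log2 fold change -1.11 ± 0.12 SE, adjusted p = 2.6e-07). PTGS2, the inducible cyclooxygenase of prostaglandin synthesis, was at 15.2 and 14.7 CPM in dnCEBP, 5.21 and 6.28 CPM in dnFOS and 10.7 and 12.5 CPM in EV (log2 fold change -1.39 ± 0.19 SE, adjusted p = 3.29e-06). In both genes the dnFOS libraries were the lowest of the 6. NFKB2, a precursor and subunit of NF-kappaB, and NFKBIA, its inhibitor, had log2 fold changes of -0.91 and -0.66, with adjusted p of 5.69e-05 and 0.000397. TNF, named after its values were seen, was 10.1 and 9.80 CPM in dnCEBP, 3.84 and 4.64 CPM in dnFOS and 6.75 and 3.98 CPM in EV (log2 fold change -1.25 ± 0.24 SE, adjusted p = 0.000479). For TNF the dnCEBP libraries were the high ones and EV lay at the dnFOS end. Genes of this list that did not pass the test included NFKB1 (log2 fold change -0.08, adjusted p = 0.596), RELB (log2 fold change -0.57, adjusted p = 0.0765), IL1B (log2 fold change -0.14, adjusted p = 0.409) and ICAM1 (log2 fold change -0.42, adjusted p = 0.0595).

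Eicosanoid synthesis and G protein signalling genes held further members lower in dnFOS. Prostaglandins and leukotrienes are lipid mediators made from arachidonic acid. Of 12 of their synthesis enzymes tested, 4 were lower (33.3%, against 7.84% of all genes) and 1 higher (8.33%, against 6.83%). The median was -0.40. The higher member, PTGES3, lost its call without dnFOS replicate 2 or any of the dnCEBP and EV libraries, at adjusted p from 0.0617 to 0.355. ALOX5AP, the protein that presents arachidonic acid to 5-lipoxygenase, was at 34.3 and 41.4 CPM in dnCEBP, 12.8 and 11.2 CPM in dnFOS and 25.6 and 19.5 CPM in EV (log2 fold change -1.64 ± 0.15 SE, adjusted p = 4.89e-09). PTGS1, the constitutive cyclooxygenase, had a log2 fold change of -0.69 (adjusted p = 1.74e-06). ALOX5 itself was at 3 counts or fewer in both dnFOS libraries and was not called. RGS proteins shorten signals from G protein coupled receptors. Of 9 RGS genes tested, 6 were lower in dnFOS (66.7%, against 7.84% of all genes) and 0 higher, with a median of -0.50. RGS2 was at 78.7 and 82.8 CPM in dnCEBP, 31.2 and 29.5 CPM in dnFOS and 71.5 and 69.1 CPM in EV (log2 fold change -1.41 ± 0.10 SE, adjusted p = 1.25e-11). RGS1 was at 55.0 and 60.5 CPM in dnCEBP, 21.7 and 22.9 CPM in dnFOS and 41.0 and 43.3 CPM in EV (log2 fold change -1.38 ± 0.11 SE, adjusted p = 5.04e-10). RGS10 and RGS14 had log2 fold changes of -0.64 and -0.50, and the call of RGS14 was lost without dnCEBP replicate 1 (adjusted p = 0.116).

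Genes of glycolysis and of the response to low oxygen were lower in dnFOS for most members. Of 26 tested, 21 were lower in dnFOS (80.8%, against 7.84% of all genes) and 0 were higher. The median log2 fold change was -0.57, and -0.62 to -0.45 over all alternatives, and 18 to 21 members were lower when any library was left out. ENO2 (ENSG00000111674, chromosome 12, 6913745 to 6923698, plus strand), an enolase isoform of glycolysis, was at 48.5 and 50.9 CPM in dnCEBP, 11.3 and 12.3 CPM in dnFOS and 50.9 and 46.9 CPM in EV (log2 fold change -2.08 ± 0.13 SE, adjusted p = 1.1e-12). SLC2A3, a glucose transporter, was at 347 and 385 CPM in dnCEBP, 146 and 144 CPM in dnFOS and 306 and 283 CPM in EV (log2 fold change -1.34 ± 0.09 SE, adjusted p = 3.81e-12). ADM, which encodes the peptide adrenomedullin and is induced by hypoxia, was at 42.5 and 43.0 CPM in dnCEBP, 15.2 and 14.5 CPM in dnFOS and 49.0 and 44.8 CPM in EV (log2 fold change -1.52 ± 0.12 SE, adjusted p = 2.53e-10). In each of these genes the dnFOS libraries lay under all 4 others. NDRG1, a hypoxia-induced stress gene, had a log2 fold change of -1.16 ± 0.09 SE (adjusted p = 3.09e-10). The enzymes that carry sugar through the pathway were shifted less. Log2 fold changes were -0.58 for GPI, -0.83 for ALDOA, -0.73 for TPI1, -0.93 for GAPDH, -0.58 for PGK1, -0.53 for PGAM1, -0.68 for ENO1 and -0.51 for PKM, all called and named after their values were seen. GAPDH, often used as a reference transcript, was at 5289 and 5489 CPM in dnCEBP, 3017 and 2634 CPM in dnFOS and 5073 and 4662 CPM in EV. LDHA, HK2, PFKL, PFKP and ALDOC did not pass the test, with log2 fold changes of -0.20, -0.05, -0.25, -0.15 and -0.83. For 17 of the 21 genes lower in dnFOS, EV lay at the dnCEBP end.

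**Figure D2:**
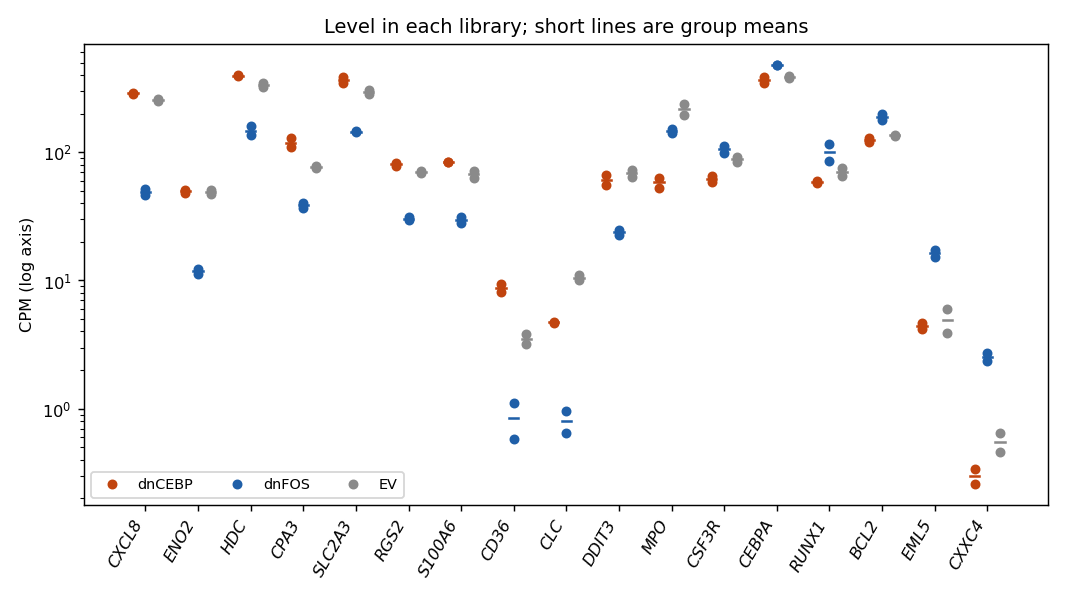
Levels of 17 genes in every library, in CPM on a log axis, with a point per library, a line at each group mean and the groups dnCEBP, dnFOS and EV side by side. The dnFOS points lie below those of dnCEBP for CXCL8 (46.6 and 51.9 against 292 and 283 CPM), ENO2, HDC and CD36 and above them for MPO (153 and 140 against 63.5 and 53 CPM), RUNX1, EML5 and CXXC4.

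Eosinophils, basophils and mast cells release histamine and proteases. Of 13 of their genes tested, 8 were lower in dnFOS (61.5%, against 7.84% of all genes) and 0 were higher, with a median of -0.81, or -1.11 to -0.69 over all alternatives. HDC, the enzyme that makes histamine, was at 399 and 393 CPM in dnCEBP, 159 and 136 CPM in dnFOS and 325 and 348 CPM in EV (log2 fold change -1.42 ± 0.09 SE, adjusted p = 2.6e-12). CPA3, the carboxypeptidase of mast cell granules, was at 109 and 129 CPM in dnCEBP, 40.0 and 36.9 CPM in dnFOS and 78.5 and 75.4 CPM in EV (log2 fold change -1.62 ± 0.10 SE, adjusted p = 1.1e-12). HPGDS, which makes prostaglandin D2, was at 245 and 267 CPM in dnCEBP, 145 and 147 CPM in dnFOS and 201 and 192 CPM in EV (log2 fold change -0.81 ± 0.09 SE, adjusted p = 4.9e-08). In CPA3 and HPGDS the order was the same, with dnCEBP highest, EV between and dnFOS lowest. CLC (ENSG00000105205, chromosome 19, 39731250 to 39738028, minus strand), which encodes the Charcot-Leyden crystal protein of eosinophils and basophils, was at 4.77 and 4.63 CPM in dnCEBP, 0.651 and 0.967 CPM in dnFOS and 10.9 and 10.1 CPM in EV (log2 fold change -2.58 ± 0.32 SE, adjusted p = 9.56e-07). Both peptide groups lay under EV for CLC, dnFOS further than dnCEBP. GATA1, the transcription factor of these lineages and of erythroid cells, was at 7.62 and 8.35 CPM in dnCEBP and 2.34 and 2.90 CPM in dnFOS (log2 fold change -1.62, adjusted p = 2.12e-05), and was named after its values were seen. Mast cell tryptase TPSAB1 was at 3 counts or fewer in both dnFOS libraries, at least 3.39-fold lower than in dnCEBP, and its reads cannot be separated from those of its near-identical copy TPSB2, which had a log2 fold change of -1.66. TPSAB1 lost its call without dnFOS replicate 1 (adjusted p = 0.110) or replicate 2 (0.0655). FCER1G, a signalling chain of the IgE receptor, was called, and lost the call without dnCEBP replicate 2 (adjusted p = 0.0514) or dnFOS replicate 2 (0.169). The receptor's own alpha and beta chains, FCER1A (log2 fold change -0.14, adjusted p = 0.298) and MS4A2 (log2 fold change 0.33, adjusted p = 0.297), did not pass the test, nor did GATA2 (log2 fold change -0.23, adjusted p = 0.0771), SIGLEC8 (log2 fold change 0.08, adjusted p = 0.898) and PRG2 (log2 fold change -0.70, adjusted p = 0.58). IL1RL1, the receptor for interleukin-33 on these cells, stood in the list of growth factor receptors and was at 79.6 and 81.6 CPM in dnCEBP, 32.2 and 32.9 CPM in dnFOS and 64.4 and 57.2 CPM in EV (log2 fold change -1.31 ± 0.10 SE, adjusted p = 1.14e-10).

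Azurophil granules hold the proteases and peroxidase of neutrophils. MPO (ENSG00000005381, chromosome 17, 58269856 to 58280935, minus strand), the myeloperoxidase, was higher in dnFOS than in dnCEBP, at 63.5 and 53 CPM in dnCEBP, 153 and 140.0 CPM in dnFOS and 239 and 194 CPM in EV (log2 fold change 1.33 ± 0.10 SE, adjusted p = 2.1e-10). Here the dnCEBP libraries were the lowest, dnFOS lay between and EV was highest. Of 14 granule genes tested, 1 (MPO) was higher (7.14%, against 6.83% of all genes) and 5 were lower (35.7%, against 7.84%), with a median of -0.17. The lower genes were SERPINB1, an inhibitor of neutrophil proteases (log2 fold change -0.72, adjusted p = 4.66e-07), SRGN, the proteoglycan core of granules (log2 fold change -0.52, adjusted p = 0.000102), LYZ, lysozyme (log2 fold change -0.29, adjusted p = 0.044), the cystatin CST7 (log2 fold change -0.33, adjusted p = 0.0153), and RNASE3. LYZ lost its call without dnCEBP replicate 2, dnFOS replicate 1 or either EV library, at adjusted p from 0.0538 to 0.350, and CST7 without dnCEBP replicate 1 (0.224) or dnFOS replicate 2 (0.130). RNASE3, the eosinophil cationic protein, was at 3 counts or fewer in both dnFOS libraries and at least 1.78-fold lower, and lost its call without dnCEBP replicate 2 (adjusted p = 0.0517), dnFOS replicate 1 (0.0927) or dnFOS replicate 2 (0.0695). Without dnFOS replicate 1, dnFOS replicate 2 or dnCEBP replicate 2, or with library totals, 3 members were lower instead of 5. The proteases PRTN3 and AZU1 were at 3 counts or fewer in both dnFOS libraries and were not called, and CTSG did not pass the test (log2 fold change 0.19, adjusted p = 0.775).

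Surface genes of monocytes and phagocytes also went both ways. Of 23 tested, 6 were lower (against 7.84% of all genes) and 3 higher (against 6.83%). The median was -0.07 and changed sign under 3 alternatives. Without dnCEBP replicate 1, 1 was higher, and with library totals 5. CD36, a scavenger receptor for lipids, was at 9.40 and 8.16 CPM in dnCEBP, 1.11 and 0.580 CPM in dnFOS and 3.19 and 3.85 CPM in EV (log2 fold change -3.30 ± 0.31 SE, adjusted p = 6.71e-09). FCGR2A, a receptor for antibody-coated particles, was at 20.3 and 24.4 CPM in dnCEBP, 9.57 and 7.93 CPM in dnFOS and 15.8 and 19.8 CPM in EV (log2 fold change -1.34 ± 0.17 SE, adjusted p = 1.16e-06). CSF3R, the receptor for granulocyte colony-stimulating factor, was higher in dnFOS. Its level was 65.6 and 58.5 CPM in dnCEBP, 113 and 97.8 CPM in dnFOS and 92.1 and 83.4 CPM in EV (log2 fold change 0.76 ± 0.09 SE, adjusted p = 1.05e-06). For CD36 EV lay between the peptides, and for CSF3R dnFOS was the highest group. CSF1R, the macrophage growth factor receptor, did not pass the test (log2 fold change 0.05, adjusted p = 0.966). Among 23 growth factor receptors and blast antigens, 6 were lower (against 7.84% of all genes) and 3 higher (against 6.83%). Without either dnCEBP library, 1 was higher. CD52, the target of alemtuzumab, was at 202 and 219 CPM in dnCEBP, 93.8 and 88.1 CPM in dnFOS and 158 and 150.0 CPM in EV (log2 fold change -1.21 ± 0.09 SE, adjusted p = 2.62e-11). HAVCR2, which encodes TIM-3, an antigen of leukemic blasts, had a log2 fold change of -0.78 (adjusted p = 5.53e-05), and CD34, the stem and progenitor marker, -0.38 (adjusted p = 0.00237). KIT, CD33 and CSF2RB had log2 fold changes of -0.03, 0.11 and 0.00 and did not pass the test. The median of this list was -0.03 and turned positive when libraries were scaled by totals.

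The genes for AP-1 and C/EBP proteins themselves were also compared. Of 15 AP-1 family genes tested, 2 were lower (13.3%, against 7.84% of all genes) and 0 were higher, with a median of -0.02 that changed sign under 5 alternatives. FOS (ENSG00000170345, chromosome 14, 75278774 to 75282230, plus strand) was at 24.6 and 22.2 CPM in dnCEBP, 30.9 and 26.0 CPM in dnFOS and 22.1 and 29.1 CPM in EV (log2 fold change 0.29 ± 0.14 SE, adjusted p = 0.176), and did not pass the test. JUN, JUNB, JUND and FOSL2 had log2 fold changes of 0.58, -0.36, -0.02 and 0.13, and were not called either. MAFF, a small MAF protein that pairs with other AP-1 members, was at 12.1 and 13.3 CPM in dnCEBP and 7.03 and 6.86 CPM in dnFOS (log2 fold change -0.86, adjusted p = 0.00213). BATF was called (log2 fold change -0.49, adjusted p = 0.0435) and lost its call without dnCEBP replicate 1 (adjusted p = 0.386) or dnFOS replicate 2 (0.318), and with the trend on GC content and length removed (0.107). Of 7 C/EBP family genes tested, CEBPA was higher and DDIT3 lower (14.3% each, against 6.83% and 7.84% of all genes). The median was 0.13 and changed sign under 4 alternatives. CEBPA (ENSG00000245848, chromosome 19, 33299934 to 33302564, minus strand) was at 389 and 345 CPM in dnCEBP, 477 and 479 CPM in dnFOS and 393 and 382 CPM in EV (log2 fold change 0.38 ± 0.09 SE, adjusted p = 0.00232). The call of CEBPA was lost without dnCEBP replicate 2 (adjusted p = 0.0573). CEBPE (ENSG00000092067, chromosome 14, 23117304 to 23119616, minus strand), the late granulocyte member, was at 3.07 and 2.08 CPM in dnCEBP, 1.76 and 1.35 CPM in dnFOS and 4.41 and 3.89 CPM in EV (log2 fold change -0.71 ± 0.34 SE, adjusted p = 0.167), and the test did not separate the peptides. For CEBPE both peptide groups lay under EV. CEBPB and CEBPD had log2 fold changes of -0.25 and 0.65 and did not pass the test.

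DDIT3 (ENSG00000175197, chromosome 12, 57516588 to 57521737, minus strand), also named CHOP, is a C/EBP relative induced by the integrated stress response, the pathway that slows translation when amino acids run short or unfolded proteins build up. Its level was 55.6 and 66.6 CPM in dnCEBP, 24.6 and 22.7 CPM in dnFOS and 73.0 and 64.3 CPM in EV (log2 fold change -1.36 ± 0.11 SE, adjusted p = 6.62e-10). Of 24 genes of this response tested, 9 were lower in dnFOS (37.5%, against 7.84% of all genes) and 1 higher (4.17%, against 6.83%). The median was -0.36. The higher member, ALDH1L2, lost its call without any 1 of the 4 peptide libraries, at adjusted p from 0.0522 to 0.20. PPP1R15A, the phosphatase subunit that restores translation, was at 80.7 and 74.3 CPM in dnCEBP, 33.8 and 33.0 CPM in dnFOS and 81.8 and 86.6 CPM in EV (log2 fold change -1.22 ± 0.10 SE, adjusted p = 2.1e-10). In both genes dnFOS was the low group, and dnCEBP lay near EV. SLC3A2, a chain of the amino acid transporters, and WARS, the tryptophanyl-tRNA synthetase (WARS1), had log2 fold changes of -0.81 and -0.93. ATF4, the transcription factor at the centre of the response, was at 419 and 416 CPM in dnCEBP, 299 and 277 CPM in dnFOS and 436 and 413 CPM in EV (log2 fold change -0.54 ± 0.08 SE, adjusted p = 3.86e-05) and was named after its values were seen. For all 9 lower genes EV lay at the dnCEBP end. Other targets did not pass the test, among them ASNS (log2 fold change -0.61, adjusted p = 0.244), TRIB3 (log2 fold change -0.27, adjusted p = 0.166), PSAT1 (log2 fold change -0.29, adjusted p = 0.0716) and SLC7A11 (log2 fold change -0.26, adjusted p = 0.121).

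Heat shock genes were lower in dnFOS for 9 of 20 tested (45.0%, against 7.84% of all genes) and higher for 1 (5.0%, against 6.83%). The median was -0.20. The higher member, HSPA4L, lost its call without any 1 of the 6 libraries, at adjusted p from 0.0505 to 0.150. HSPA6, an inducible HSP70 that is nearly silent without stress, was at 9.03 and 10.7 CPM in dnCEBP, 2.73 and 1.45 CPM in dnFOS and 5.50 and 4.21 CPM in EV (log2 fold change -2.17 ± 0.26 SE, adjusted p = 8.44e-07). HSPA1A, the main inducible HSP70, was at 55.4 and 49.0 CPM in dnCEBP, 24.1 and 21.8 CPM in dnFOS and 40.0 and 34.4 CPM in EV (log2 fold change -1.18 ± 0.12 SE, adjusted p = 2.78e-08), and cannot be told from its near-identical copy HSPA1B, which had a log2 fold change of -1.06. DNAJB1, a partner of HSP70, was at 108 and 109.5 CPM in dnCEBP, 61.0 and 57.5 CPM in dnFOS and 76.8 and 77.2 CPM in EV (log2 fold change -0.87 ± 0.09 SE, adjusted p = 2.45e-08). In each of these the group means ran from dnCEBP through EV to dnFOS, from high to low, and for 6 of the 9 lower genes EV lay between the peptides. HSPB1, named after its values were seen, had a log2 fold change of -2.15 (adjusted p = 0.000627). The chaperones of the endoplasmic reticulum and mitochondria, HSPA5, HSPA9 and HSPD1, had log2 fold changes of -0.15, -0.21 and 0.09 and did not pass the test.

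Annexins and S100 proteins bind calcium and membranes. Of 16 tested, 9 were lower in dnFOS (56.25%, against 7.84% of all genes) and 1 higher (6.25%, against 6.83%). The median was -0.44. The higher member, ANXA5, lost its call without either dnCEBP library or dnFOS replicate 1, at adjusted p from 0.0916 to 0.128. S100A6 was at 84.3 and 83.4 CPM in dnCEBP, 31.3 and 28.1 CPM in dnFOS and 71.6 and 63.3 CPM in EV (log2 fold change -1.49 ± 0.10 SE, adjusted p = 9.08e-12). ANXA2 was at 28.6 and 32.1 CPM in dnCEBP, 14.1 and 15.7 CPM in dnFOS and 28.1 and 26.8 CPM in EV (log2 fold change -1.03 ± 0.13 SE, adjusted p = 2.2e-06). ANXA1, which limits inflammation, had a log2 fold change of -0.87 (adjusted p = 1.73e-08), and S100A4, a regulator of motility, -0.50 (adjusted p = 0.000143). ANXA8 was also called, but has near-identical copies and is uncertain. Of 25 actin, myosin light chain, thymosin and vimentin genes, 13 were lower (52.0%, against 7.84% of all genes) and 1 higher (4.0%, against 6.83%). The median was -0.34. The higher member, ARPC1B, lost its call without dnCEBP replicate 2 or either dnFOS library, at adjusted p from 0.0523 to 0.210. MYL6, a myosin light chain, was at 322 and 328 CPM in dnCEBP, 159 and 146 CPM in dnFOS and 259 and 236 CPM in EV (log2 fold change -1.09 ± 0.09 SE, adjusted p = 2.1e-10). TMSB10 and TMSB4X, which hold actin monomers, had log2 fold changes of -0.92 and -0.62. VIM, the intermediate filament of mesenchymal and blood cells, was at 739 and 795 CPM in dnCEBP, 483 and 462 CPM in dnFOS and 672 and 602 CPM in EV (log2 fold change -0.70 ± 0.09 SE, adjusted p = 1e-06), and overlaps the antisense gene VIM-AS1, from which its reads cannot be told apart unless strand was used in counting. ACTB, CFL1 and FLNA had log2 fold changes of -0.13, 0.02 and -0.09 and did not pass the test.

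**Figure D3:**
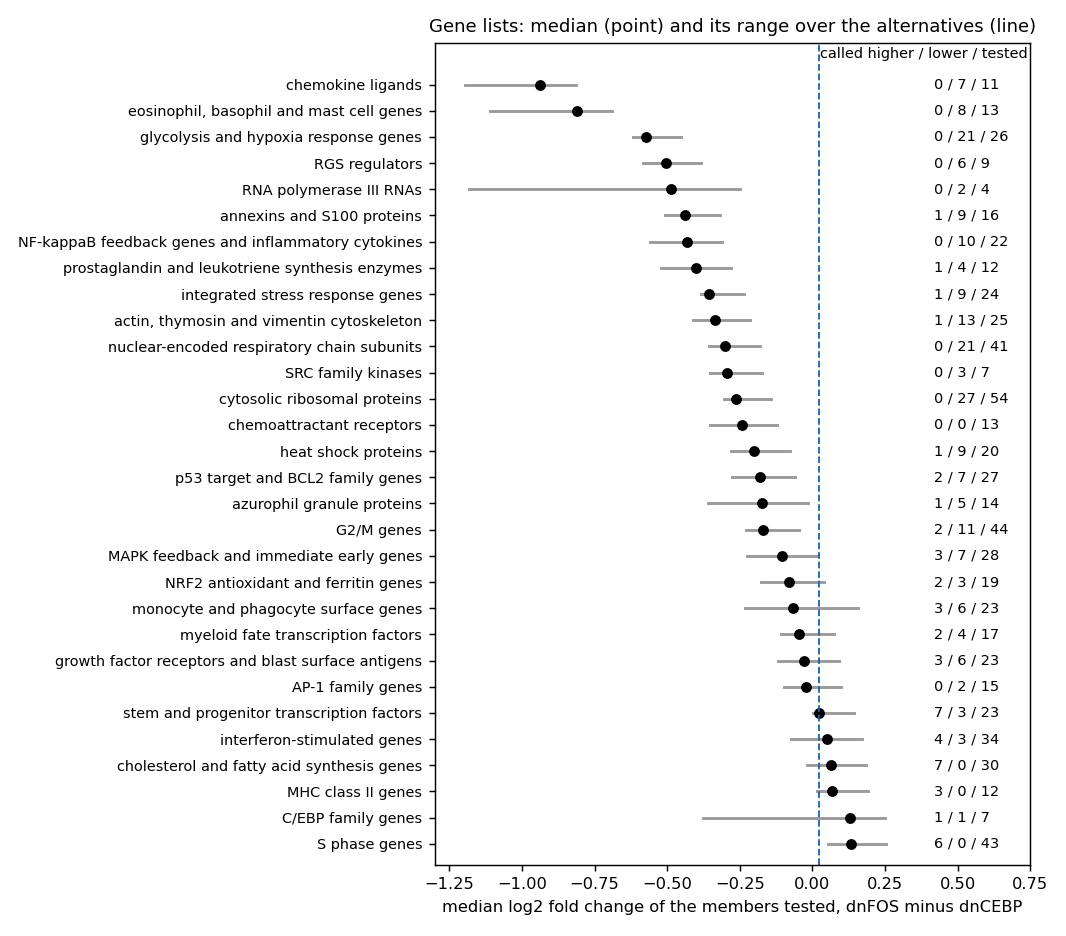
Median log2 fold change (dnFOS minus dnCEBP) of the tested members of each of 30 gene lists, with a bar for the range of the median over the alternatives and, beside each name, the members called higher, called lower and tested. The dashed line is the median of all 15395 genes, 0.02, and chemokine ligands (-0.94), eosinophil, basophil and mast cell genes (-0.81) and glycolysis (-0.57) lie farthest to the left of it.

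RUNX1 (ENSG00000159216, chromosome 21, 34787801 to 36004667, minus strand), the partner of AP-1 and C/EBP at many myeloid regulatory regions, was higher in dnFOS, at 60.0 and 57.6 CPM in dnCEBP, 85.5 and 115 CPM in dnFOS and 65.2 and 75.2 CPM in EV (log2 fold change 0.76 ± 0.11 SE, adjusted p = 3.53e-05). The dnFOS replicates differed from each other but both lay above the other 4 libraries. Of 23 stem and progenitor transcription factors tested, 7 were higher in dnFOS (30.4%, against 6.83% of all genes) and 3 were lower (against 7.84%). The median was 0.02, the same as for all genes. Without dnFOS replicate 2, 3 were higher and 1 lower, and without dnCEBP replicate 1, 4 and 1. CBFB, the subunit that stabilises RUNX1 on DNA, had a log2 fold change of 0.52 (adjusted p = 0.000932), and lost the call without dnFOS replicate 2, at a log2 fold change of 0.31 (0.0750). BCL11A, a zinc finger factor of early lymphoid and dendritic cells, was at 16.5 and 16.9 CPM in dnCEBP, 24.6 and 33.4 CPM in dnFOS and 15.4 and 17.9 CPM in EV (log2 fold change 0.78 ± 0.15 SE, adjusted p = 0.000406). GFI1B, a repressor needed for erythroid and megakaryocyte cells, was lower at 34.7 and 30.4 CPM in dnCEBP, 19.5 and 16.3 CPM in dnFOS and 21.3 and 22.9 CPM in EV (log2 fold change -0.85 ± 0.13 SE, adjusted p = 4.13e-05). GATA2, ERG, FLI1, MYB and LMO2 did not pass the test, with log2 fold changes of -0.23, -0.06, 0.02, -0.05 and 0.00. Among 17 myeloid fate factors, 2 were higher (11.8%, against 6.83% of all genes) and 4 lower (23.5%, against 7.84%). The median was -0.05 and changed sign under 3 alternatives. Without dnFOS replicate 2, 0 were higher and 2 lower, and without either dnCEBP library or with library totals 2 were lower. NFIL3, a basic leucine zipper repressor, had a log2 fold change of -0.62 (adjusted p = 0.00244), and SPI1, which encodes PU.1, 0.19 (adjusted p = 0.562), the latter not called. GFI1, a transcriptional repressor, was higher (log2 fold change 0.37, adjusted p = 0.0154), with EV at the dnFOS end. It lost its call without dnCEBP replicate 1 (log2 fold change 0.32) or dnFOS replicate 2 (log2 fold change 0.33). TFEC was higher (log2 fold change 0.44, adjusted p = 0.00164) and lost its call without dnFOS replicate 2 (0.0919) and with the trend on GC content and length removed, where its log2 fold change was 0.12 (adjusted p = 0.300).

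Immediate early genes answer growth signals within minutes, and MAPK feedback genes limit those signals. Of 28 tested, 7 were lower in dnFOS (against 7.84% of all genes) and 3 higher (against 6.83%). The median was -0.11 and turned positive when libraries were scaled by totals. NR4A1, an orphan nuclear receptor induced by many stimuli, was at 28.0 and 23.6 CPM in dnCEBP, 9.12 and 11.2 CPM in dnFOS and 19.6 and 22.8 CPM in EV (log2 fold change -1.36 ± 0.16 SE, adjusted p = 2.67e-07). NR4A2 was at 11.1 and 9.80 CPM in dnCEBP, 3.91 and 2.80 CPM in dnFOS and 6.25 and 9.06 CPM in EV (log2 fold change -1.61 ± 0.23 SE, adjusted p = 1.34e-05). MYC, which drives growth, was higher in dnFOS than in dnCEBP at 149 and 130.5 CPM in dnCEBP, 216 and 202 CPM in dnFOS and 233 and 215 CPM in EV (log2 fold change 0.58 ± 0.09 SE, adjusted p = 2.74e-05), and EV lay with dnFOS. DUSP4, a phosphatase of MAP kinases, was at 4.66 and 3.28 CPM in dnCEBP, 8.53 and 8.61 CPM in dnFOS and 3.23 and 3.07 CPM in EV (log2 fold change 1.09 ± 0.23 SE, adjusted p = 0.0014). EGR1 was called (log2 fold change -0.59, adjusted p = 0.0192) and lost its call without dnCEBP replicate 1 (0.244) or dnFOS replicate 1 (0.226). DUSP1, DUSP6, IER2 and ZFP36 did not pass the test, with log2 fold changes of -0.06, -0.10, 0.09 and -0.09. Left out in turn, dnFOS replicate 1, dnFOS replicate 2 and dnCEBP replicate 1 left 2, 4 and 3 members lower, and library totals left 3.

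SRC (ENSG00000197122, chromosome 20, 37344685 to 37406050, plus strand), the founding tyrosine kinase of its family, was expressed near the limit of detection. Its level was 1.04 and 0.627 CPM in dnCEBP, 0.130 and 0.193 CPM in dnFOS and 1.05 and 0.870 CPM in EV (adjusted p = 0.0446). Both dnFOS libraries were at 3 counts or fewer, so SRC was at least 3.43-fold lower there than in dnCEBP. The call was lost without dnCEBP replicate 1 (adjusted p = 0.244), dnFOS replicate 1 (0.218) or dnFOS replicate 2 (0.126). Of 7 kinases of this family tested, 3 were lower (42.9%, against 7.84% of all genes) and 0 higher, with a median of -0.29. Fewer were lower without any 1 of the peptide libraries. Library totals, thinned libraries, DESeq2 and voom each left 1 lower. LYN, the main SRC family kinase of myeloid cells, was at 146 and 156 CPM in dnCEBP, 115 and 109.8 CPM in dnFOS and 139 and 132 CPM in EV (log2 fold change -0.43 ± 0.09 SE, adjusted p = 0.000724). FGR was called at an adjusted p of 0.0489, and lost the call without any 1 of the 6 libraries, at adjusted p from 0.0505 to 0.188, and with the trend on GC content and length removed (0.0634). FYN and YES1 had log2 fold changes of -0.26 and 0.05 and did not pass the test.

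Among cell cycle genes, most mitotic genes that were called were lower in dnFOS and the S phase genes that were called were higher. Of 44 genes of G2 and mitosis tested, 11 were lower in dnFOS (against 7.84% of all genes) and 2 higher (against 6.83%). The median was -0.17. CCNB1, the cyclin that starts mitosis, was at 80.5 and 85.2 CPM in dnCEBP, 61.5 and 56.1 CPM in dnFOS and 80.0 and 74.9 CPM in EV (log2 fold change -0.49 ± 0.09 SE, adjusted p = 0.000392). KIF2C and KIF20A, kinesins of the spindle, had log2 fold changes of -0.54 and -0.57, and UBE2C, a ubiquitin enzyme of mitotic exit, -0.61. MKI67 and ASPM were the 2 higher members. MKI67 lost its call without dnCEBP replicate 2 (0.164) or dnFOS replicate 2 (0.119) and ASPM without dnCEBP replicate 1 (0.0713). The genes CDK1, PLK1 and TOP2A did not pass the test, with log2 fold changes of -0.19, -0.27 and -0.07. Scaled by totals, 6 members were lower. Of 43 S phase genes tested, 6 were higher (13.95%, against 6.83% of all genes) and 0 lower (against 7.84%), with a median of 0.13. MCM6, a subunit of the replicative helicase, was at 54.3 and 56.3 CPM in dnCEBP, 79.4 and 73.4 CPM in dnFOS and 69.3 and 69.8 CPM in EV (log2 fold change 0.47 ± 0.09 SE, adjusted p = 0.000574). RFC3, of the clamp loader, was called (log2 fold change 0.45, adjusted p = 0.00366) and lost the call without dnCEBP replicate 1 (0.0622). UHRF1, which maintains DNA methylation, was called (log2 fold change 0.72, adjusted p = 0.0121) and lost it without dnCEBP replicate 2 (0.150) or dnFOS replicate 2 (0.0967), with a log2 fold change from 0.39 to 1.18 as single libraries were left out. The 6 calls became 3 without dnFOS replicate 2 and 2 without either dnCEBP library, and there were 13 higher with library totals and 10 higher and 1 lower with the trend on GC content and length removed.

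Of 27 p53 target and BCL2 family genes tested, 7 were lower in dnFOS (25.9%, against 7.84% of all genes) and 2 higher (7.41%, against 6.83%). The median was -0.18. CDKN1A, the cell cycle inhibitor p21, was at 3.33 and 3.38 CPM in dnCEBP, 0.586 and 1.16 CPM in dnFOS and 2.22 and 2.52 CPM in EV (log2 fold change -2.0 ± 0.39 SE, adjusted p = 0.000551). BCL2, which blocks apoptosis, was higher at 121 and 128 CPM in dnCEBP, 179 and 199 CPM in dnFOS and 134 and 137 CPM in EV (log2 fold change 0.60 ± 0.09 SE, adjusted p = 9.24e-06), and its relative BCL2A1, which also blocks apoptosis, was lower at 31.4 and 35.3 CPM in dnCEBP, 16.7 and 14.3 CPM in dnFOS and 29.2 and 28.7 CPM in EV (log2 fold change -1.09 ± 0.13 SE, adjusted p = 6.74e-07). These survival genes thus moved in opposite directions between the same libraries. ZMAT3, a p53 target, was higher (log2 fold change 0.60, adjusted p = 0.000354). MDM2, BAX and MCL1 had log2 fold changes of -0.11, 0.07 and -0.12 and did not pass the test. Without dnCEBP replicate 1, 4 members were lower.

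Of 30 genes of cholesterol and fatty acid synthesis tested, 7 were higher in dnFOS (23.3%, against 6.83% of all genes) and 0 lower, with a median of 0.06. PMVK, an enzyme of the mevalonate pathway, was at 10.7 and 12.4 CPM in dnCEBP, 19.8 and 22.8 CPM in dnFOS and 14.6 and 15.4 CPM in EV (log2 fold change 0.88 ± 0.15 SE, adjusted p = 0.000137). MSMO1, a sterol demethylating enzyme, was at 81.2 and 88.9 CPM in dnCEBP and 112 and 112 CPM in dnFOS (log2 fold change 0.40 ± 0.09 SE, adjusted p = 0.00176). IDI1 was called and lost its call without dnCEBP replicate 1 (adjusted p = 0.115) or dnFOS replicate 2 (0.0686). Without dnFOS replicate 2, 3 members were higher, and without dnCEBP replicate 2, 4, with a median below 0. The ferritin chains FTH1 and FTL, which store iron, were lower in dnFOS, with log2 fold changes of -0.60 and -0.63 (adjusted p = 7.51e-06 and 5.66e-06). Of 19 NRF2 targets and ferritin genes tested, 3 were lower (15.8%, against 7.84% of all genes) and 2 higher (10.5%, against 6.83%). The median was -0.08 and turned positive with library totals. The glutathione synthesis genes GCLC and GCLM were higher, at log2 fold changes of 0.36 and 0.57. Both lost their calls without either dnCEBP library or dnFOS replicate 2, at adjusted p from 0.0502 to 0.383. CIITA, the master activator of MHC class II genes, was higher at 25.1 and 22.6 CPM in dnCEBP, 37.6 and 41.3 CPM in dnFOS and 30.7 and 35.9 CPM in EV (log2 fold change 0.72 ± 0.12 SE, adjusted p = 0.000115), and HLA-DOA at 0.962 and 1.06 CPM in dnCEBP, 2.87 and 3.38 CPM in dnFOS and 1.93 and 1.83 CPM in EV (log2 fold change 1.62 ± 0.37 SE, adjusted p = 0.00309). Of 12 class II genes tested, 3 were higher (against 6.83% of all genes) and 0 lower (against 7.84%), with a median of 0.07. The main class II chains HLA-DRA, HLA-DRB1, HLA-DPA1 and CD74 did not pass the test, with log2 fold changes of 0.03, 0.11, 0.01 and -0.08. Of 34 interferon-stimulated genes tested, 4 were higher (11.8%, against 6.83% of all genes) and 3 lower (8.82%, against 7.84%), with a median of 0.05 that changed sign under 3 alternatives. The 4 higher calls became 0 without dnFOS replicate 2 or dnCEBP replicate 2 or with DESeq2, and 1 without dnFOS replicate 1 or dnCEBP replicate 1. The 3 lower calls became 1 without dnCEBP replicate 1 or with DESeq2 or library totals, and 5 with the trend on GC content and length removed. RSAD2, the antiviral protein viperin, was at 23.9 and 26.8 CPM in dnCEBP, 12.2 and 11.2 CPM in dnFOS and 12.8 and 13.3 CPM in EV (log2 fold change -1.11 ± 0.15 SE, adjusted p = 3.49e-06), and its dnCEBP libraries lay above the other 4.

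Genes of protein synthesis and respiration showed small shifts, lower in dnFOS. Of 54 cytosolic ribosomal protein genes tested, 27 were lower (against 7.84% of all genes) and 0 higher (against 6.83%), with a median of -0.26. RPL9 had a log2 fold change of -0.44 (adjusted p = 0.000491). Of 41 nuclear-encoded respiratory chain subunits, 21 were lower (51.2%, against 7.84% of all genes) and 0 higher, with a median of -0.30. COX7A2 had a log2 fold change of -0.58 (adjusted p = 2.31e-05). The count of ribosomal protein calls was 8 without dnFOS replicate 2, 13 without dnCEBP replicate 2 and 11 with libraries scaled by totals, and that of respiratory chain calls was 10, 13 and 10. Genes called lower had a median exonic length of 4092 bases and a GC content of 49.8%, and genes called higher 6346 bases and 42.6%. With a trend on GC content and length removed from each library, 1984 of the 2259 calls remained, 1139 of them lower and 845 higher. The signal recognition particle RNAs RN7SL1 and RN7SL3 were also called lower, with log2 fold changes of -0.73 and -1.38. They are near-identical copies and were 2 of the 4 RNA polymerase III transcripts tested, and both lost their calls once the trend on GC content and length was removed, with log2 fold changes of -0.59 (adjusted p = 0.158) for RN7SL1 and -1.24 (0.0781) for RN7SL3. RN7SL1 lost its call as well without dnCEBP replicate 1 (0.215) or replicate 2 (0.220).

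The largest differences fell partly outside the lists. Among called genes with at least a 2-fold change, a mean of at least 1 CPM and no overlap between the peptides, 203 were lower and 90 higher in dnFOS. CXXC4 (ENSG00000168772, chromosome 4, 104468312 to 104494901, minus strand), a zinc finger regulator of WNT signalling, was at 0.259 and 0.338 CPM in dnCEBP, 2.34 and 2.71 CPM in dnFOS and 0.462 and 0.641 CPM in EV (log2 fold change 3.06 ± 0.57 SE, adjusted p = 0.000391). EML5, of a family of microtubule-binding proteins, was at 4.70 and 4.15 CPM in dnCEBP, 15.4 and 17.4 CPM in dnFOS and 3.86 and 6.04 CPM in EV (log2 fold change 1.88 ± 0.21 SE, adjusted p = 1.56e-07), and its exons overlap ZC3H14 on the other strand. ZNF462, a zinc finger gene, was at 5.03 and 5.79 CPM in dnCEBP, 16.5 and 19.3 CPM in dnFOS and 4.95 and 7.28 CPM in EV (log2 fold change 1.72 ± 0.20 SE, adjusted p = 2.6e-07). In these genes dnFOS was the high group and dnCEBP and EV were close. ENPP5, FAM184A, TIGD4, CCDC74A, CUTALP, ACY3, SLITRK5 and PEG3 had log2 fold changes of 2.69, 2.21, 2.17, 2.02, 1.87, 1.85, 1.74 and 1.71, and AC096667.1, which overlaps ZNF804A on the other strand, 1.95. Of these, FAM184A, CCDC74A, ACY3, SLITRK5, PEG3 and AC096667.1 lost their calls without at least 1 of the peptide libraries, each of which ended the call of at least 1 of them, at adjusted p from 0.0530 to 0.355. Without dnFOS replicate 1 the log2 fold change of ACY3 was 1.1.

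Among the largest falls, CSMD3, SEC14L2 and VEPH1 were at 3 counts or fewer in both dnFOS libraries, and so were at least 10.4-fold, 8.27-fold and 7.76-fold lower there than in dnCEBP. For CSMD3 the dnCEBP libraries were the high ones, at 2.63 and 2.41 CPM. Its EV libraries, at 0.126 and 0.366 CPM, lay with dnFOS. EV was at 1.30 and 1.88 CPM for SEC14L2 and at 1.09 and 1.33 CPM for VEPH1, at the dnCEBP end. SLITRK6, a membrane protein of neurons, was at 2.48 and 2.56 CPM in dnCEBP, 0.521 and 0.0967 CPM in dnFOS and 1.26 and 1.19 CPM in EV (log2 fold change -2.85 ± 0.53 SE, adjusted p = 0.000372), and leaving out dnFOS replicate 1 gave a log2 fold change of -4.62 and leaving out replicate 2 gave -2.26. LINC00355 and AL390719.1 had log2 fold changes of -2.49 and -2.45, and the call of LINC00355 was lost without dnFOS replicate 1, at a log2 fold change of -1.65 (adjusted p = 0.0532), against -3.77 without dnFOS replicate 2. KCNMB3 and AC006369.1, with log2 fold changes of -2.49 and -2.99, overlap PIK3CA and CDC42EP3 on the other strand and are uncertain. KCNMB3 also overlaps LRRFIP1P1 on its own strand. VEPH1 overlaps PTX3 and AC092944.1, and AL390719.1 overlaps AL645608.8, on the other strand, so both are uncertain as well. RN7SL128P, a pseudogene of the signal recognition particle RNA, had the lowest log2 fold change of the 12 largest falls, -4.38, and shares sequence with RN7SL1.

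EV levels were set beside those of the peptides for all called genes. The position of EV was set on a scale with 0 at the dnCEBP mean and 1 at the dnFOS mean, in log2 CPM, with values under 0.25 taken as the dnCEBP end and over 0.75 as the dnFOS end. It is a description with no test. Of the 1207 genes lower in dnFOS, EV lay at the dnCEBP end for 661 (54.8%), between for 467 (38.7%) and at the dnFOS end for 79 (6.55%). Of the 1052 higher genes these were 626 (59.5%), 347 (33.0%) and 79 (7.51%). So for most called genes EV lay nearer the dnCEBP mean than the dnFOS mean. The dnCEBP end includes genes with EV beyond the dnCEBP mean, 294 (24.4%) of the lower and 364 (34.6%) of the higher genes. In those, both peptide means lay on the same side of EV, dnFOS further from it. Among the 105 genes at least 2-fold higher, EV lay between for 59 (56.2%) and at the dnCEBP end for 31 (29.5%).

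**Figure D4:**
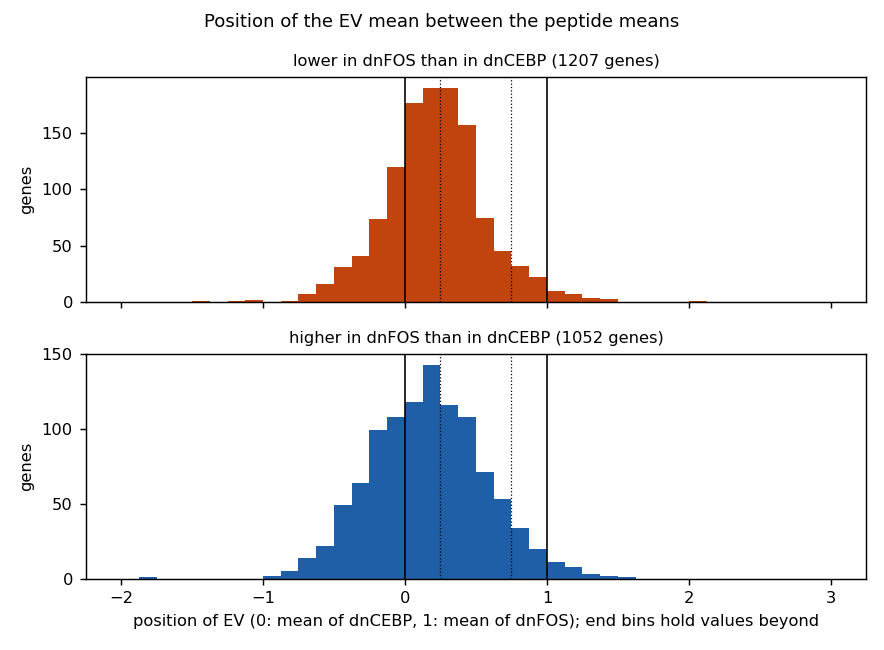
Histograms of the position of EV for the 1207 genes lower and the 1052 genes higher in dnFOS, with 0 at the dnCEBP mean and 1 at the dnFOS mean (log2 CPM) on the x axis and the number of genes on the y axis. Both histograms are highest near 0, and 79 genes in each lie above 0.75.

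For a small set of genes EV lay at the dnFOS end, so dnCEBP was the peptide further from EV. MPO, MYC and GFI1, described above, were in this set, with EV positions of 1.42, 1.17 and 1.33. Their EV means lay above those of both peptides, so dnFOS also stood below EV. For MPO the means were 58.2 CPM in dnCEBP, 146 CPM in dnFOS and 217 CPM in EV. CA2, a carbonic anhydrase, was at 26.7 and 29.6 CPM in dnCEBP, 67.1 and 64.0 CPM in dnFOS and 55.1 and 58.6 CPM in EV (log2 fold change 1.22 ± 0.10 SE, adjusted p = 8.8e-10). MMP2, a matrix metalloproteinase, was at 2.40 and 2.75 CPM in dnCEBP, 6.77 and 5.03 CPM in dnFOS and 6.8 and 5.31 CPM in EV (log2 fold change 1.22 ± 0.26 SE, adjusted p = 0.0013). Both were lower in dnCEBP than in the other groups, and CA2, MMP2, THBS1 and CD226 were named after their values were seen. THBS1, the matrix protein thrombospondin 1, was at 5.07 and 6.08 CPM in dnCEBP, 1.82 and 2.22 CPM in dnFOS and 1.76 and 2.11 CPM in EV (log2 fold change -1.47 ± 0.29 SE, adjusted p = 0.000738). CD226, an adhesion receptor of lymphocytes and mast cells, was at 23.6 and 23.8 CPM in dnCEBP, 12.5 and 15.2 CPM in dnFOS and 12.0 and 11.6 CPM in EV (log2 fold change -0.79 ± 0.15 SE, adjusted p = 0.000429). These were higher in dnCEBP, as were RSAD2, TNF and CSMD3, with EV positions of 0.85, 0.76 and 1.02.

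The network modules of the study were set beside the comparison. They group genes linked to motifs of a factor family in open chromatin of patient cells against normal stem cells, so they do not come from these libraries. Of 281 tested genes of the AP-1 module, 28 (9.96%, against 7.84% of all genes) were lower and 22 (7.83%, against 6.83%) higher in dnFOS, with a median of 0.06. Of 302 genes of the C/EBP module, 37 (12.2%) were lower and 35 (11.6%) higher, with a median of 0.04. Of 415 genes of the RUNX module, 36 (8.67%) were lower and 40 (9.64%) higher, with a median of 0.02, as for all genes. Without dnFOS replicate 2 the higher genes of these modules numbered 10, 17 and 23 in the order given, and without dnCEBP replicate 1 10, 20 and 24. Without dnCEBP replicate 2 the C/EBP and RUNX sets each held 22 higher genes. The lower genes of the AP-1 module fell in number to 17 and those of the C/EBP module to 23 without dnCEBP replicate 1. Scaled by totals, 16 were lower and 52 higher in the AP-1 module, 20 and 66 in the C/EBP module and 21 and 76 in the RUNX module. Among the 130 AP-1 module genes that the study marks as bound by FOS, 18 (13.8%, against 7.84% of all genes) were lower and 8 (6.15%, against 6.83%) higher. Among the other 151, 10 (6.62%) were lower and 14 (9.27%) higher. With library totals the bound genes gave 10 lower and 23 higher, and without dnCEBP replicate 1 10 lower and 5 higher. Among 252 C/EBP module genes marked as bound by C/EBPα, 32 (12.7%) were lower and 30 (11.9%) higher, or 18 and 55 with library totals. Of 223 genes in the AP-1 module alone, 22 (9.9%, against 7.84% of all genes) were lower and 17 (7.62%, against 6.83%) higher. Of 244 in the C/EBP module alone, 31 (12.7%) were lower and 30 (12.3%) higher. Of the 58 in both, 6 (10.3%) were lower and 5 (8.62%) higher. These counts also shrank without single libraries, for genes higher in the AP-1 module alone to 8 and in the C/EBP module alone to 15 without dnFOS replicate 2, and for the 58 to 2 lower and 2 higher without dnCEBP replicate 1.

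Promoter letters were counted over all tested genes with a promoter in the RefSeq table, 15153 starts of 10516 genes, on both strands of the 250 bases before the start. TGANTCA was present in 4.34% of these promoters. Among genes lower in dnFOS it was present in 92 of 1395 promoters (6.59%), and among those at least 2-fold lower in 33 of 232 (14.2%, exact 95% interval 10.0% to 19.4%). Among genes higher in dnFOS it was present in 59 of 1210 (4.88%), and among those at least 2-fold higher in 2 of 96 (2.08%). Starts of 1 gene overlap in sequence, and intervals cover counting error only. With genes of 1 start alone, which was tried after the data were seen, the share was 14 of 99 (14.1%) for genes at least 2-fold lower and 3.64% for all. The C/EBP letters TTGCNNAA were present in 7.10% of promoters of lower genes, 7.93% of higher genes and 6.57% of all, in 21 of 232 (9.05%) of genes at least 2-fold lower and in 6.25% of those at least 2-fold higher, and TGACGTCA in 2.22% of lower, 2.64% of higher and 2.48% of all. The composite TGATGCAA, a run that joins part of the AP-1 palindrome to part of the C/EBP palindrome, was present in 0.645%, 0.331% and 0.455%. Of these sets, TGANTCA had its highest share among genes at least 2-fold lower in dnFOS. No test was run, and nothing follows from these letters on binding.

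**Figure D5:**
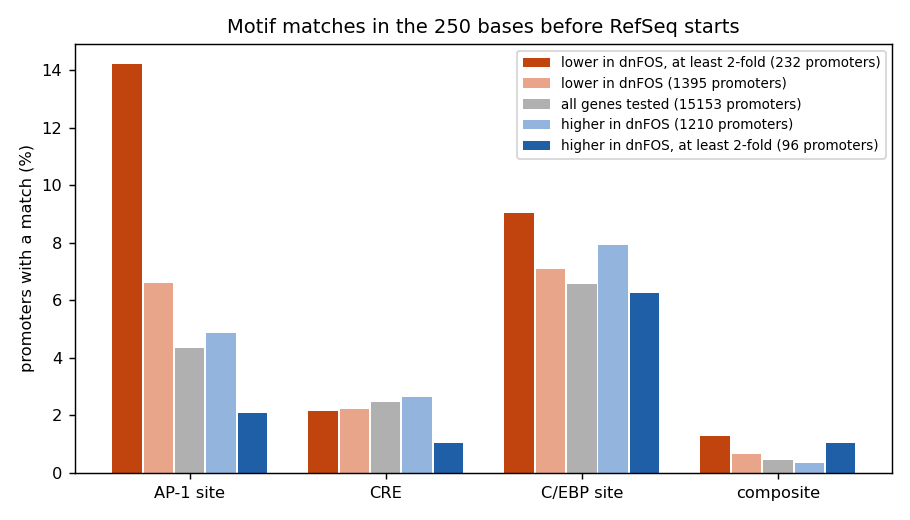
Share of promoters, in percent, that hold TGANTCA (AP-1 site), TGACGTCA (CRE), TTGCNNAA (C/EBP site) or TGATGCAA (composite) within 250 bases before the start, in all tested genes and in genes lower, higher, at least 2-fold lower and at least 2-fold higher in dnFOS. The tallest AP-1 bar is that of the genes at least 2-fold lower, 14.2%, against 4.34% in all genes.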

How the data were processed

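The 6 KO52 libraries, 2 per group, were made from total RNA after depletion of ribosomal RNA. Each library has a deposited table of whole-number read counts by gene, which the authors did not normalise. The submitters' processing notes name Trimmomatic, HISAT2, featureCounts of Subread and the build hg38, with no versions. The annotation release and the strand setting of the counting are not given in the sources used here. The titles of the samples gave group and replicate number.

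GENCODE release 29 (GRCh38), the source of coordinates, held 58394 of the 60612 gene IDs. In edgeR 4.0.16 (R 4.3.3), filterByExpr with a minimum count of 10 kept 15395 of the 27870 genes that had any count. Libraries were scaled with TMM factors (0.956 to 1.05), and a robust quasi-likelihood model with a mean per group and no covariate was fitted to all 6 libraries, with 3 residual degrees of freedom. The contrast dnFOS minus dnCEBP was tested two-sided and adjusted by the Benjamini-Hochberg method. The SE beside a log2 fold change is its absolute value divided by the square root of the F statistic. It was derived from the test and is not a measured spread of replicates. Log2 CPM used a prior count of 2 and scaled library sizes. Total counts ran from 9862994 to 27663179, and intervals cover counting error only. Scripts were tested on simulated data.

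Named genes were 9 set by name, up to 12 of the largest changes each way (at least 2-fold, 1 CPM, no overlap of groups) and up to 4 called members per list by p. Other genes are marked as named after their values were seen, or are given as members that did not pass. The comparison, the 30 lists and the rule were chosen with earlier results of these data known. No set test was run. Alternatives were other filters, scalings and fits, DESeq2 1.42.0, voom in limma 3.58.1, a test against a 1.5-fold change, a replicate block, fits without each library, and a trend on GC content and length removed with mgcv 1.9.3. Some genes of the lists are not reported here by name.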

Additional observations from a re-analysis of the deposited data

How the results depend on the processing

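Of 135 named genes, 133 were called, and of 2422 values under alternatives 2222 kept their side of the threshold, 200 lost the call and 0 reversed. The test against a 1.5-fold change ended 82 of these calls, leaving 153 genes in all, 138 of them at least 2-fold. Without 1 library, 1182 to 2262 genes were called and 238 to 391 at least 2-fold. Thinned to 9862994 counts, a setting chosen after seeing the data, 1432 were called.

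The share of calls lower in dnFOS was 53.4%. It was 59.6% with no filter, 56.3% with median-of-ratios factors, 25.4% with library totals, 55.7% with only the 4 peptide libraries, 58.5% with DESeq2 (1766 calls), 86.3% against a 1.5-fold change, 59.5% once trends on GC content and length were taken out, 56.7% when thinned and 51.9% to 63.6% without 1 library. Of genes at least 2-fold changed, 69.3% were lower, 50% with library totals, 85.5% against a 1.5-fold change and 63.7% to 78.6% without 1 library. Split at the middle, EV was nearer dnCEBP for 83.5% of lower and 80.7% of higher genes. With stricter C/EBP letters (TTGCGCAA, TTGCATAA or TTGCGTAA), 1.22% of promoters of lower and 0.909% of higher genes matched. With genes of 1 start, TGANTCA was in 3.11% and TTGCNNAA in 5.90% of promoters of higher genes. Beyond the construction of each setting, the cause was not tested.

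The median of 21 of 30 lists kept its sign under every alternative. It changed sign for the AP-1 family, C/EBP family, MAPK and immediate early, NRF2, cholesterol, growth receptor, interferon, monocyte surface and myeloid factor lists.

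The labels give all groups replicates 1 and 2. Deviations of same-numbered libraries correlated at 0.088 between dnFOS and dnCEBP, 0.028 between dnFOS and EV and 0.017 between dnCEBP and EV, so the numbers were not taken as pairs. With the replicate block, 3013 genes were called, 1438 higher and 1575 lower, including all 2259. Depth limits genes near the floor in dnFOS, the shallower group.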
